A study of Drosophila melanogaster with 2 samples.

Results

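The genes described here encode the subunits of the proteasome, the particle that degrades ubiquitin-tagged proteins. They were chosen by symbol from the protein-coding genes of the Drosophila melanogaster annotation (Ensembl BDGP6): each symbol starts with Prosalpha, Prosbeta, Rpn or Rpt and goes on with a digit. The rule took 48 of 13945 protein-coding genes on the 6 chromosome arms. It used no measured value. Of the 48 genes, 32 encode general subunits and 16 have a symbol that ends in T or R, with or without a further digit, and are called testis-type here. That name rests on the symbols, since the peak lists hold no measure of where a gene is expressed.

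The measurement was chromatin immunoprecipitation with sequencing for the forkhead transcription factor Slp2 (Sloppy paired 2), a segmentation and neural patterning regulator. The series holds 1 group of 2 samples, biological replicates 2 and 3, with no other condition. Both are whole embryos of mixed sex, aged 0 to 24 hours, of a transgenic line (strain 9T-GFP in the labels) with green fluorescent protein fused to the C terminus of Slp2, precipitated through an antibody against that tag. Whole embryos mix all tissues, so a peak does not show in which cells Slp2 was bound, and whether Slp2 is present in the cells that use a given promoter was not measured. The authors' list filtered by IDR (the irreproducible discovery rate, a measure of how far peak ranks repeat between replicates) held 3203 peaks on dm6. The relaxed lists held 28637 peaks for both replicates pooled and 30000 for each replicate. The IDR list equals the top 3203 of the pooled list by score, so a peak in it need not be strong in each replicate. The relaxed lists are deposited as peaks together with background. The lists carry no read numbers, which leaves sequencing depth unknown. The signal value of a peak is the authors' score with no stated scale, used here only to order peaks within a list.

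As background, the proteasome has a core particle, whose alpha subunits form the outer gated rings and whose beta subunits form the inner rings that hold the proteolytic sites, and a regulatory particle that caps it. The cap consists of a base, with the Rpt ring of unfolding ATPases and several Rpn scaffold and ubiquitin-binding subunits, and a lid of Rpn subunits that includes the deubiquitinating enzyme Rpn11. The general subunits are needed in nearly every cell and are held at matched amounts. In Drosophila several subunits have a second gene copy used in the male germline, the best known being Prosalpha6T.

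The promoters of 4 general subunits and of 2 subunits with no Slp2 peak are shown first, because the results turn on where the summits stand in them. Each line covers the 250 bases before the transcription start site (TSS) and 50 from it on, so that the start is base 251, 5′ to 3′ in the direction of transcription, from the NCBI Release 6 assembly. Rpn5 (chr3R:5789243-5789542, plus strand), Rpn3 (chr2L:19051540-19051839, plus), Rpn12 (chr3L:16582778-16583077, plus) and Rpn2 (chr3R:29153274-29153573, plus) are 4 of the 8 subunit genes with a Slp2 peak at the promoter, among them the 3 with the strongest. Rpn12R (chr3L:15042521-15042820, minus) is the testis-type counterpart of Rpn12, and Prosbeta3 (chr3R:9006177-9006476, minus) is a general subunit with no peak in any list and no IDR summit within 5 kb. Capitals mark matches on either strand to TATCGATA (the DRE, the site of the promoter factor DREF), its core ATCGAT, the forkhead forms TGTTTAC and TGTTTA, GGTCACAC (promoter motif 1), TGACNNNGC (the antioxidant response element, ARE) and TATAAA (the TATA box). The core lies inside the DRE and the short forkhead form inside the longer one, so their matches overlap.
Rpn5: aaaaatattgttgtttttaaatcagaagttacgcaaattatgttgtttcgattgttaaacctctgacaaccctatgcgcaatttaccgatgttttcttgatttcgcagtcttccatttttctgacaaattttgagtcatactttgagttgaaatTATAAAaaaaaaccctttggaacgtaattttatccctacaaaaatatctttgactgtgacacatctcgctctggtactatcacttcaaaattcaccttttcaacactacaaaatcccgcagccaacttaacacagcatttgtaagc
Rpn3: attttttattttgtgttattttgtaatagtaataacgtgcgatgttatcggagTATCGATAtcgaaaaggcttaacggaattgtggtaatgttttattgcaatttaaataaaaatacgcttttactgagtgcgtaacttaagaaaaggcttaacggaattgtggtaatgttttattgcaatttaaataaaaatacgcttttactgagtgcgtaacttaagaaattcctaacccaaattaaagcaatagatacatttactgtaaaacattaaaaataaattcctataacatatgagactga
Rpn12: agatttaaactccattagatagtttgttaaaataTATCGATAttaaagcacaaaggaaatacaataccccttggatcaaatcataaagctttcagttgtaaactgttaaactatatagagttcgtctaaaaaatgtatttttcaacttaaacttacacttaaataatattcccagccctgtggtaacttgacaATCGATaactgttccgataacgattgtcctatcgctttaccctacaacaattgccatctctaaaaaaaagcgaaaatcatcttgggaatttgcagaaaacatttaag
Rpn2: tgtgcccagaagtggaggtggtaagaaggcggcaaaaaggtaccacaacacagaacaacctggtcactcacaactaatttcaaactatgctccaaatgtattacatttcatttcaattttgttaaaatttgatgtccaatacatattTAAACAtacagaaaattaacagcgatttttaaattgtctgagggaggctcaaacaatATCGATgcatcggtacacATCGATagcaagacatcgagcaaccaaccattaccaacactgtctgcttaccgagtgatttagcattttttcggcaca
Rpn12R: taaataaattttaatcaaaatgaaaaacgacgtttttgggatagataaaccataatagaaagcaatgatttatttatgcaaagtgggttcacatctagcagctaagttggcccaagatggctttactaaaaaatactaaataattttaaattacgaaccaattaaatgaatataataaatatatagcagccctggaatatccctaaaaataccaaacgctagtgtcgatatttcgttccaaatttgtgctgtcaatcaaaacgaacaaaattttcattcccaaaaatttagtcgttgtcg
Prosbeta3: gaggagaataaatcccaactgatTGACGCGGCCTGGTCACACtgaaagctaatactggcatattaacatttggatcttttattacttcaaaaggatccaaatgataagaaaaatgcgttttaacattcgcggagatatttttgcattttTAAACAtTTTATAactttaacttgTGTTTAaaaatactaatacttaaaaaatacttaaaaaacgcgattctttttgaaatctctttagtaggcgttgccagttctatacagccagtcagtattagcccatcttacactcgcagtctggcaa

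The Slp2 summit fell on base 12 of the Rpn5 window, base 259 of the Rpn3 window, base 155 of the Rpn12 window and base 77 of the Rpn2 window. The Rpn3 window holds the DRE at bases 54 to 61 and then an exact tandem repeat of 78 bases, whose copies begin at bases 64 and 142. The summit lies past the repeat, just inside the gene. In Rpn12 the DRE stands at bases 35 to 42 and a further core at bases 194 to 199, on either side of the summit. Rpn2 has the core at bases 205 to 210 and 223 to 228, downstream of its summit, and the short forkhead form at bases 148 to 153. The Rpn5 window holds the TATA box letters at bases 155 to 160 and no other motif marked here. Rpn12R holds none of them. Prosbeta3, without a peak, holds the short forkhead form at bases 150 to 155 and 174 to 179, the ARE letters at bases 24 to 32 and 31 to 39, and motif 1 at bases 35 to 42, the last overlapping the ARE. It also holds the TATA box letters at bases 157 to 162.

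Slp2 peaks of the IDR list stood at the promoters of some general subunits and at none of the testis-type ones. A summit lay within 500 bp of an own TSS for 8 of 32 general subunit genes (25.0%), for 0 of 16 testis-type genes, and for 15.2% of all protein-coding genes. The 8 genes were the lid subunits Rpn3, Rpn5, Rpn6, Rpn8 and Rpn12, the base subunits Rpn2 and Rpt5, and Prosbeta1, a catalytic core subunit. By class that is 5 of 8 lid genes, 1 of 4 non-ATPase base genes, 1 of 6 ATPase genes, 1 of 7 core beta genes and 0 of 7 core alpha genes. In all, 7 of 18 genes of the regulatory particle had such a summit and 1 of 14 core genes did. The classes are small and their difference was not tested. The 16 testis-type genes are likewise too few to set their count of 0 apart from the share of all genes.

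How far this count repeats between the samples was asked of the 3203 strongest peaks of each replicate. In replicate 2 the strongest peaks reached 10 of 32 general genes (31.2%), against 14.2% of all genes. In replicate 3 they reached 4 of 32 (12.5%), against 15.6% of all genes. So at this cut the share of general subunits stood above that of all genes in replicate 2 and below it in replicate 3. The replicate 3 count depends on where the list is cut. All 8 genes of the IDR list had a peak in replicate 3, and 3 of them ranked better there. Past rank 3203 in replicate 3 were Rpn2 (3407), Prosbeta1 (3607), Rpn8 (3923) and Rpt5 (8048). The 10 genes of replicate 2 were the 8 of the IDR list with Rpn13 and Rpt2. The 4 of replicate 3 were the lid genes Rpn3, Rpn5, Rpn6 and Rpn12, all among the 8. The testis-type count was 0 of 16 in each replicate. Of the 8 IDR peaks, 4 had a summit within 200 bp among the strongest of both replicates, which makes 4 of 32 general genes (12.5%) against 10.8% of all genes.

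**Figure D1:**
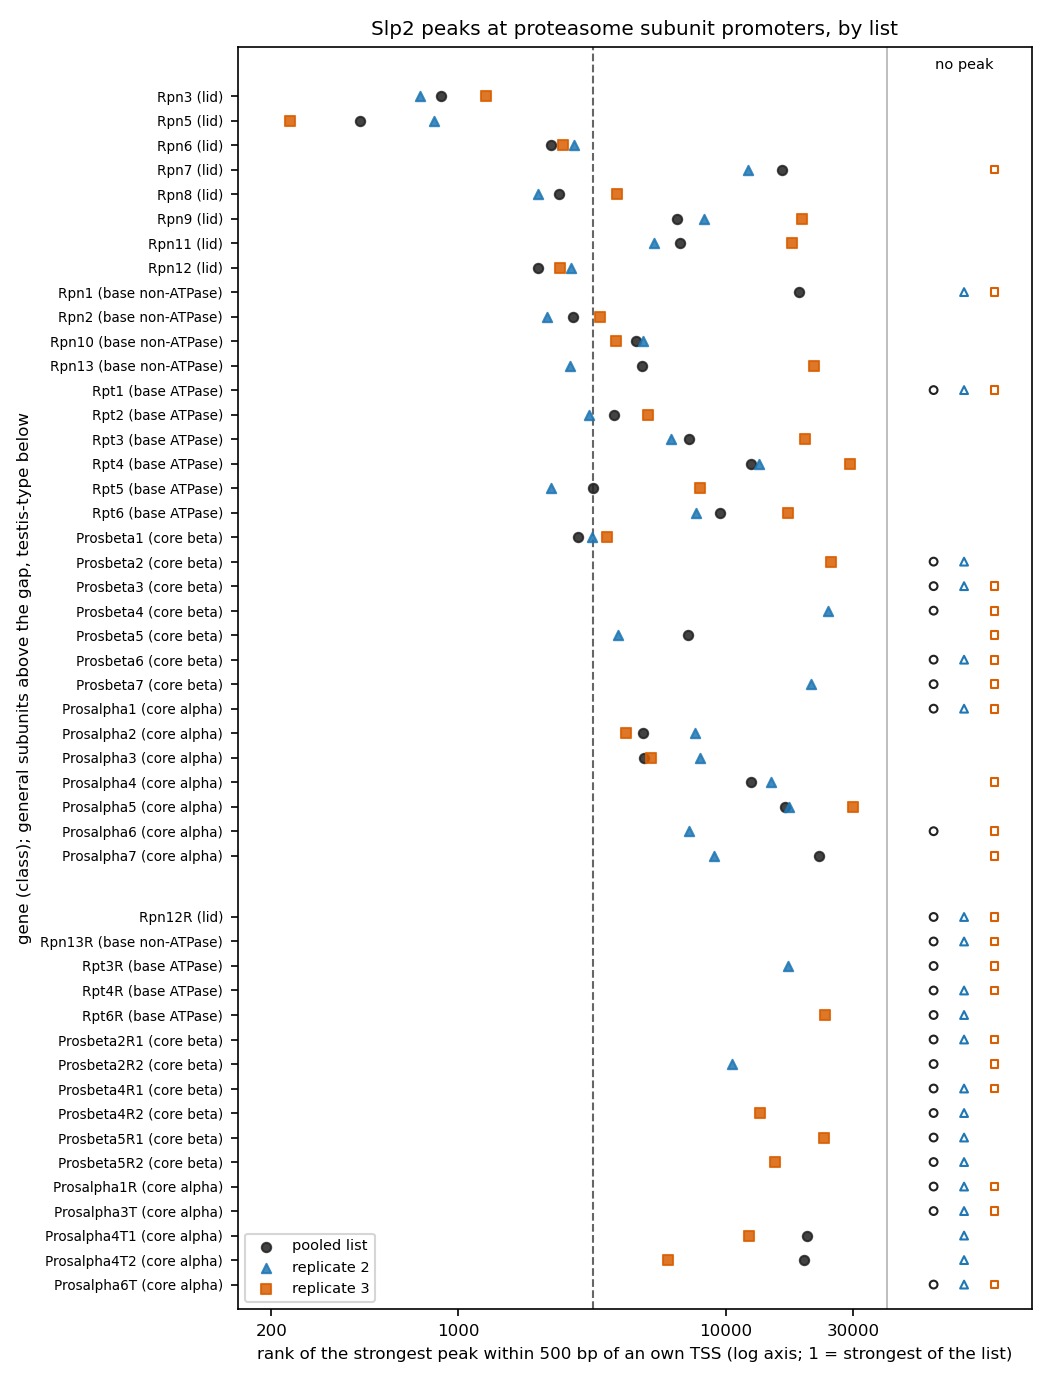
Rank of the strongest peak within 500 bp of an own TSS for the 32 general subunits (above the gap) and the 16 testis-type subunits (below it), on a log axis, in the pooled list (circles), replicate 2 (triangles) and replicate 3 (squares), with open symbols for no peak. The dashed line is at rank 3203, the length of the IDR list: the circles at or left of it are 5 lid genes, Rpn2, Rpt5 and Prosbeta1, and no testis-type gene has a symbol there.

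The lid genes held the strongest of these peaks. Rpn5 (FBgn0028690, 3R, 5789493 to 5791569, plus strand) encodes a scaffold subunit of the lid and had its strongest promoter summit at 5789254 (peak 5789052 to 5789455), 239 bp upstream of the TSS, with signal 204 and rank 429. Its ranks were 814 in replicate 2 (signal 78.0) and 235 in replicate 3 (signal 133). A weaker IDR summit of Rpn5 (signal 97.8, rank 1700) lay at 5789456, 37 bp from the TSS. Rpn5 is thus the member with the best rank, and its order between the replicates is the reverse of that of Rpn3.

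Rpn3 (FBgn0261396, 2L, 19051790 to 19053681, plus strand), also a lid scaffold subunit, had its summit at 19051798, 8 bp inside the first exon, with signal 142 and rank 860. It ranked 720 in replicate 2 (signal 82.3) and 1273 in replicate 3 (signal 55.9). Rpn12 (FBgn0028693, 3L, 16583028 to 16584022, plus strand), a lid subunit involved in the last step of lid assembly, had its summit at 16582932, 96 bp upstream, with signal 88.9 and rank 1994. It ranked 2651 and 2395 in replicates 2 and 3. With Rpn5 and Rpn6 they are the members in the strongest set of each replicate.

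Rpn6 (FBgn0028689, 2R, 14750166 to 14752910, minus strand), which links lid, base and core, had its summit at 14752390 with signal 82.5 and rank 2218, and ranks of 2704 and 2462 in replicates 2 and 3. Rpn8 (FBgn0002787, 2R, 24400028 to 24404527, plus strand), the partner of Rpn11 in the lid, had its summit at 24402864 with signal 78.9 and rank 2388, and ranks of 1989 and 3923. In both genes the summit lies in an intron of the longer transcript, 119 bp and 141 bp upstream of an internal TSS. With the start of the gene record as the only TSS, these genes drop out and 6 of 32 general genes keep a summit. By that measure 1870 of all 13945 protein-coding genes had one.

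Among base and core genes, Rpn2 (FBgn0028692, 3R, 29153524 to 29157255, plus strand), the large scaffold of the base, had its summit at 29153350, 174 bp upstream, with signal 73.2 and rank 2681, and ranks of 2150 and 3407 in replicates 2 and 3. Prosbeta1 (FBgn0010590, 2R, 16013805 to 16014787, minus strand), the caspase-like catalytic subunit, had its summit at 16014855, 68 bp upstream, with signal 71.2 and rank 2808, and ranks of 3179 and 3607. Rpt5 (FBgn0028684, 3R, 23752876 to 23754623, plus strand), an ATPase of the base ring, had its summit at 23752914, 38 bp inside its first exon, with signal 65.4. That is rank 3203, the last place of the IDR list. Its replicate ranks of 2232 and 8048 lie the farthest apart of the 8. By its pooled score Rpt5 is the member just inside the threshold. The member just outside it is Rpt2, another ATPase of the ring, whose pooled peak had signal 58.1 and rank 3836.

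The 8 peaks were weak within the IDR list. Their median signal was 80.7, against 107 over all genes with an own-promoter IDR peak, and only Rpn5 and Rpn3 fell in the stronger 50% of the list. The summits lay a median of 108 bp from an own TSS (range 8 to 239 bp), against 140 bp over all such genes. In 6 of the 8 genes the strongest promoter summit was upstream of the TSS used, and in Rpn3 and Rpt5 it was inside the first exon.

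**Figure D2:**
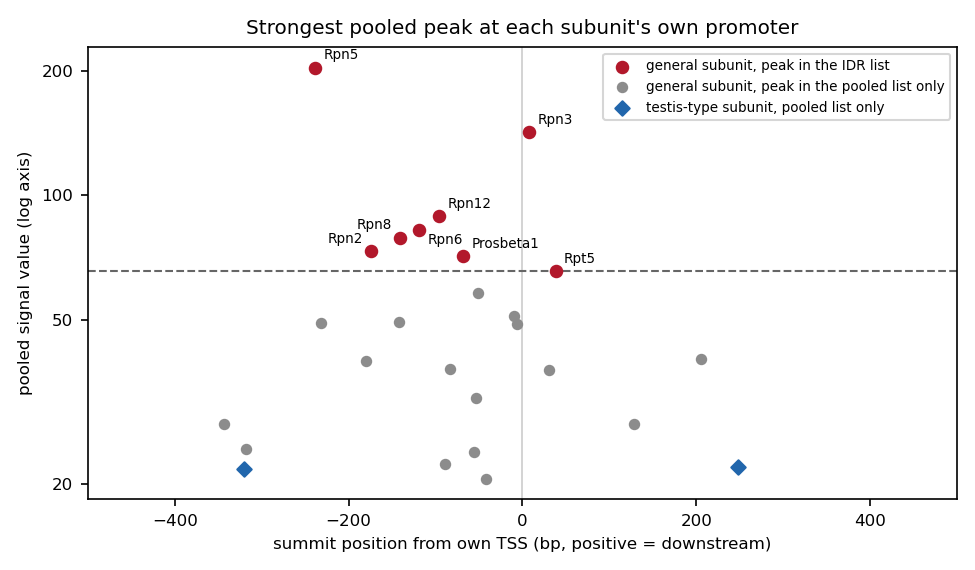
Signal value (log axis) of the strongest pooled peak at each own promoter against the position of its summit from the TSS in bp. The 8 general subunits with an IDR peak (red) lie at or above the dashed line at signal 65.4, the lowest of the IDR list, with Rpn5 at 204 and Rpn3 at 142, and the 2 testis-type genes with a pooled peak (diamonds) lie at 22.0 and 21.7.

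Most of these promoters are shared with a neighbour. In 7 of the 8 genes the peak also lay within 500 bp of the TSS of another gene, transcribed head to head from the opposite strand, where 58.3% of all genes with an own-promoter IDR peak share it with another gene's TSS in either orientation. The neighbour was nearer to the strongest summit in 3 cases. For Rpn5 it is Hat1, which encodes a histone acetyltransferase, 130 bp from the summit against 239 bp for Rpn5. For Rpn2 it is Slbp, which encodes the histone mRNA stem-loop binding protein, at 84 bp against 174 bp, and for Prosbeta1 it is Rrp42, an RNA exosome subunit gene, at 53 bp against 68 bp. The subunit gene was nearer in the other 4, with l(2)37Bb at 186 bp for Rpn3, ave at 131 bp for Rpn6, Slik at 184 bp for Rpn8 and RanBP3 at 80 bp for Rpt5. A peak at such a pair of starts cannot be given to either gene. Rpn12 alone had no other TSS within 500 bp of its summit.

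General subunit genes often have such a neighbour whether or not Slp2 is found there, and the count of peaks moved with it. Another gene's TSS lay within 500 bp of an own TSS for 21 of 32 general genes (65.6%), 3 of 16 testis-type genes (18.8%) and 30.9% of all genes. Among genes with such a neighbour, 7 of 21 general genes (33.3%) had an own-promoter IDR summit, against 29.4% of all genes. Among genes without one, 1 of 11 general genes (9.09%) did, against 8.87% of all genes. Within each of these strata the general subunits therefore stood near the share of all genes. Of the testis-type genes, 0 of 3 and 0 of 13 had a summit. This division was made after the shared promoters had been seen.

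The remaining 24 general genes had no IDR summit at the own promoter, though 16 of them had a weaker one in the pooled list. The pooled list reached 24 of 32 general genes (75.0%), 2 of 16 testis-type genes (12.5%) and 51.4% of all genes. Taking any of the 3 relaxed lists, 28 of 32 general and 8 of 16 testis-type genes had a summit, against 64.8% of all genes. Since these lists include background by the authors' own naming, such a summit is a rank and not a binding site.

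In the lid, all 8 genes had a pooled summit. Rpn11, the deubiquitinating enzyme, had pooled signal 39.6 and ranks of 5400 and 17759 in replicates 2 and 3. Rpn9 had pooled signal 40.2 and ranks of 8343 and 19341, and Rpn7 had pooled signal 24.3, rank 12108 in replicate 2 and no peak in replicate 3. Rpn11 and Rpn9 therefore ranked lower in replicate 3, as did Rpn3 and Rpn8, while Rpn5, Rpn6 and Rpn12 ranked better there.

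In the base, Rpn10 and Rpn13 are receptors for ubiquitin chains. Rpn10 had pooled signal 51.1 and ranks of 4904 and 3881 in replicates 2 and 3, while Rpn13 had pooled signal 49.3 and ranks of 2632 and 21390. Rpn1, the docking scaffold of the base, had a pooled peak of signal 22.4 and no peak in either replicate's own list. The receptor Rpn13 is thus in the strongest set of replicate 2 and at a low rank in replicate 3.

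In the ATPase ring, Rpt2 ranked 3086 and 5126 in replicates 2 and 3. Rpt3 (pooled signal 37.7) ranked 6227 and 19841, Rpt6 (pooled signal 32.2) ranked 7728 and 17193, and Rpt4 (pooled signal 27.9) ranked 13322 and 29316. Rpt1 had no summit in any list. Each of the 5 ATPase genes with a peak in both samples, Rpt5 included, ranked better in replicate 2.

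A pooled summit stood at 7 of 14 core genes and 17 of 18 genes of the regulatory particle, where 51.4% of all genes had one, so the core was near the share of all genes. Of the alpha ring genes, Prosalpha2 had pooled signal 49.1 and ranks of 7697 and 4245 in replicates 2 and 3, and Prosalpha3 had pooled signal 48.7 and ranks of 8034 and 5248. Prosalpha4 (pooled signal 28.0), Prosalpha5 (23.9) and Prosalpha7 (20.6) had pooled ranks from 12426 to 22277. Prosalpha6 had a peak in replicate 2 alone (rank 7315), and Prosalpha1 had none. In Prosalpha2 and Prosalpha3 the rank was better in replicate 3, unlike in most members.

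Of the beta ring genes without an IDR summit, Prosbeta5, the chymotrypsin-like catalytic subunit, had pooled signal 38.0 and rank 3962 in replicate 2, with no peak in replicate 3. Prosbeta2, the trypsin-like catalytic subunit, had a peak in replicate 3 alone (rank 24885). The structural subunits Prosbeta4 and Prosbeta7 had one in replicate 2 alone (ranks 24254 and 20929). Prosbeta3 and Prosbeta6 had none in any list. Of the 3 catalytic subunits, then, only Prosbeta1 passed into the IDR list.

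Over both samples, 26 of 32 general genes had a relaxed own-promoter summit in replicate 2, against 53.7% of all genes, and 20 had one in replicate 3, against 44.4% of all genes. Of the 19 with both, 13 ranked better in replicate 2, a share to be read against the 47.6% of all genes with both that did so. The genes are not independent replicates of the samples, so this describes these lists alone.

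The testis-type genes had only scattered low entries. Prosalpha4T2 had pooled signal 22.0 and rank 6073 in replicate 3, with none in replicate 2, and Prosalpha4T1 had pooled signal 21.7 and rank 12206 in replicate 3. Prosbeta2R2 and Rpt3R had an entry in replicate 2 alone (ranks 10588 and 17176). Prosbeta4R2, Prosbeta5R2, Prosbeta5R1 and Rpt6R had one in replicate 3 alone, at ranks from 13444 to 23461. No testis-type gene had an entry in both replicates. The other 8, which are Prosalpha1R, Prosalpha3T, Prosalpha6T, Prosbeta2R1, Prosbeta4R1, Rpn12R, Rpn13R and Rpt4R, had none in any list.

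A wider window took in more peaks. With a summit in the gene body or within 5 kb of it, 19 of 32 general genes (59.4%), 1 of 16 testis-type genes (6.25%) and 39.4% of all genes had an IDR peak. Of the 32 general genes, 11 had such a peak but none at the own promoter, as did 24.2% of all genes. The nearest IDR summit lay a median of 3756 bp from an own TSS of a general gene, 49882 bp from that of a testis-type gene and 10514 bp over all genes. Genes are not equally crowded. The median number of other genes with a TSS in the window was 3 for general, 2 for testis-type and 3 for all genes. The window includes the gene body, and the median general or testis-type gene was shorter than the median of all genes. Equal numbers therefore do not show equal crowding. Within 500 bp of an own TSS, another gene's TSS stood at 65.6% of general, 18.8% of testis-type and 30.9% of all genes. The part of crowding in the shares with a peak within 5 kb was not tested.

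The strongest of these wider peaks lay nearest to the start of another gene. The strongest near Rpt5 (signal 397, rank 89) lay 5332 bp from its TSS and 131 bp from that of PTPMT1, a mitochondrial phosphatase gene. The strongest near Rpn5 (signal 337, rank 135) lay 99 bp from the TSS of Hpf1, a cofactor gene of poly(ADP-ribose) polymerase. Prosalpha3 had 4 summits downstream of it, with signals of 243, 93.9, 172 and 78.4, all with CG10543 as the gene of the nearest TSS. Prosalpha4 had 2, the stronger (signal 205) 938 bp from the TSS of eas, an ethanolamine kinase gene.

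The other general members with only a wider peak had one of lower signal, in each case nearer to the TSS of another gene. These were Prosbeta6 (signal 128, 127 bp from the TSS of CG4101), Rpt6 (signal 121, 154 bp from those of anox and SLIRP1), Rpn9 (signal 117, with CG10365 nearest at 1419 bp) and Prosbeta7 (signal 105, 210 bp from Cerk, a ceramide kinase gene). Rpn13 (signal 85.5, 42 bp from mRpL53 and CG33155), Rpt2 (signal 83.9, CG5854 nearest at 542 bp), Rpn11 (signal 83.5, 438 bp from qtc), Rpt4 (signal 73.1, 80 bp from CG15891) and Rpn10 (signal 66.3, 52 bp from COX8) complete them. The 1 testis-type gene, Prosbeta2R2, had a peak of signal 397 and rank 90 at 5215523 on 3R, downstream of it and 4005 bp from its TSS, with cno, the gene of the junction protein Canoe, nearest at 1933 bp. Among these members the IDR summit nearest to an own TSS was that of Rpn11, at 1463 bp.

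The promoter letters of the general subunits were searched for 10 motifs on both strands, in the same 300 bases around the start of each gene record. The DRE, TATCGATA, was found in 12 of 32 general promoters (37.5%), in 0 of 16 testis-type promoters and in 9.36% of all promoters. The members with it are Rpn3, Rpn7, Rpn9, Rpn12, Rpn13, Rpt5, Prosalpha3, Prosalpha5, Prosalpha6, Prosbeta1, Prosbeta2 and Prosbeta6. In 6 general genes an IDR summit lay within 500 bp of that start, Rpn6 and Rpn8 having theirs at an internal TSS outside the window searched. The DRE stood in 4 of these 6 promoters and in 8 of the other 26, and in 15.2% of the 1870 promoters of all genes with a summit at that start. The core ATCGAT was found in 17 general promoters (53.1%), 1 testis-type promoter (6.25%) and 23.3% of all promoters. These are matches of letters and not sites, and the DRE was found here with and without a Slp2 peak.

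The forkhead form TGTTTAC, the kind of sequence that forkhead proteins bind, was found in 0 of the 6 general promoters with a summit at the start of the gene record and 4 of the other 26, which are Prosbeta5, Prosbeta6, Rpt2 and Rpt6. That makes 4 of 32 general (12.5%), 2 of 16 testis-type (12.5%) and 9.19% of all promoters. The shorter TGTTTA was found in 46.9%, 37.5% and 32.5% of them, in the same order, and in 1 of the 6 (Rpn2) and 14 of the other 26. Of the 1870 promoters of all genes with a summit at that start, 11.1% held TGTTTAC and 36.8% held TGTTTA. The 6 promoters are too few to set apart from those shares. In the 100 bases on each side of the 8 summits, TGTTTAC was again found in 0 and TGTTTA in 1, against 7.91% and 27.3% of 1631 IDR summits at promoters. The DRE stood in 3 of these 8 summit windows, against 7.73% of the 1631, and its core ATCGAT in 6, against 17.2%.

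Of the other motifs, GGTCACAC stood in 15.6% of general, 0 of 16 testis-type and 7.70% of all promoters. The ARE letters TGACNNNGC, the kind of site used by the proteasome gene activator Nrf1 in mammals and by its fly relative cnc, stood in 15.6%, 6.25% and 8.63%. Neither stood in the 6 general promoters with a summit at the start of the gene record. Of the 1870 such promoters of all genes, 11.2% held GGTCACAC and 8.40% the ARE letters, so 6 promoters are too few to compare. Within 100 bases of the 8 summits GGTCACAC stood in 1 and the ARE letters in 0, against 4.35% and 5.33% of the 1631 summits. TATAAA (40.6%, 31.2% and 45.8%) and TCAGT (the initiator letters, 56.2% of general, 8 of 16 testis-type and 51.5% of all) stood near the shares of all promoters. GAGAG, the GAGA factor letters, stood in 9.38% of general, 37.5% of testis-type and 29.7% of all promoters, and CAGCTG (an E box) in 3.12%, 6.25% and 17.7%. The median content of G and C was 33.5% in general, 32.7% in testis-type and 38.0% in all promoters, and its part in these shares was not tested.

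**Figure D3:**
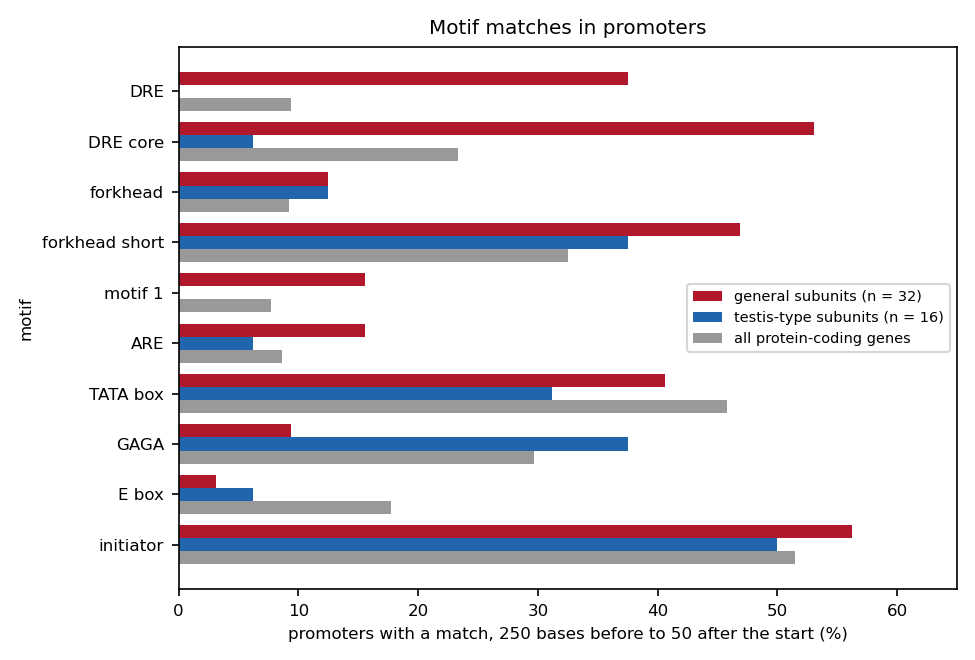
Share of promoters with a match on either strand, from 250 bases before to 50 bases from the start on, for general subunits, testis-type subunits and all 13945 protein-coding genes. The DRE bar of the general subunits is at 37.5% against 9.36% for all genes, and there is no DRE match in the testis-type group.

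Other genes of the ubiquitin and proteasome pathway, from a list of 27 symbols of which 23 matched, had an own-promoter IDR summit in 6 of 23 (26.1%), against 15.2% of all genes. With another gene's TSS within 500 bp it was 4 of 10, against 29.4% of all genes, and without one 2 of 13, against 8.87%. The strongest were at RpS27A (signal 175, 70 bp upstream), which encodes ubiquitin fused to a ribosomal protein, Faf2 (signal 169, 53 bp upstream), a cofactor of the unfoldase, Ubi-p63E (signal 164, 20 bp downstream), a polyubiquitin gene, and cnc (signal 148, 325 bp downstream). The other 2 were Uch-L5 (signal 95.7), a deubiquitinating enzyme of the base, and Pomp (signal 71.3), the assembly factor of the core. The pooled list reached 22 of the 23, against 51.4% of all genes, the exception being Uch-L5R. Among those without an IDR summit, the ubiquitin shuttle gene Ubqn had pooled signal 64.7 and rank 3259, just past the end of the IDR list, followed by p47 (59.2), maf-S (56.6), the partner of cnc, and TER94 (55.5), the unfoldase itself. RpS27A and RpL40 in this list are ribosomal protein genes as well.

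Set beside comparable machines, general proteasome subunits were not the list with the highest share. Beside the 8 of 32 general subunits (25.0%), an own-promoter IDR summit was found at 24 of 73 genes for mitochondrial ribosomal proteins (32.9%), 10 of 44 translation initiation factor genes (22.7%) and 2 of 8 genes of the CCT chaperonin (25.0%). The CCT summits lay 447 bp and 490 bp from the TSS, near the edge of the window. The strongest set of replicate 3 alone reached 12.5% of the general proteasome subunits, and 34.2%, 20.5% and 12.5% of these lists in that order. That of replicate 2 reached 31.2% of the general subunits, and 31.5%, 20.5% and 0 of these lists. Mitochondrial ribosomal protein and translation initiation factor genes thus kept nearly the same share in both replicates. The general proteasome subunits did not. Of the 8 CCT genes, 0 were reached in replicate 2 and 1 in replicate 3, too few to compare.

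**Figure D4:**
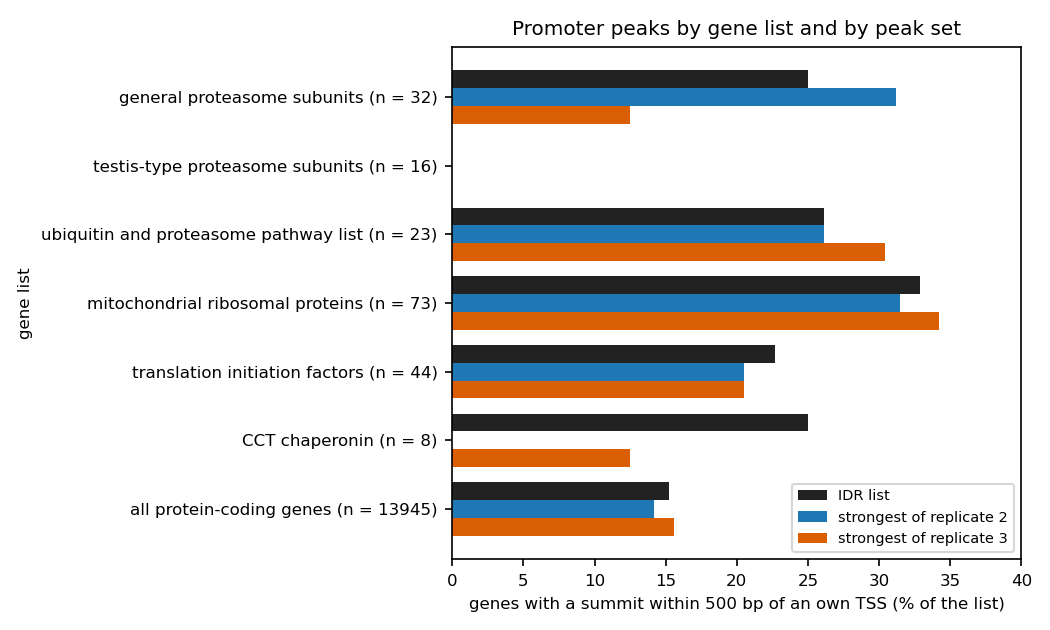
Share of each gene list with a summit within 500 bp of an own TSS, in the IDR list and in the 3203 strongest peaks of replicates 2 and 3. General subunits stand at 25.0%, 31.2% and 12.5%, testis-type subunits at 0 in each, and all protein-coding genes at 15.2%, 14.2% and 15.6%.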

How the data were processed

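Slp2 was measured by ChIP-seq in 2 samples of 1 group, from chromatin sonicated to 200 to 800 bp, per the labels. The authors deposited narrowPeak lists on dm6 and dm3: relaxed lists for each replicate and for both pooled, each derived from the alignments and 1 further file, and an IDR list derived from them, per the deposited readme files. Aligner, peak caller and IDR threshold are not given in the sources used here. The deposited signal value is a score of the authors with no stated scale. The IDR list equals the top 3203 of the pooled list by score, so its score has no replicate error of its own. The median peak was 404 bp wide in the IDR list, and 430 bp and 370 bp wide for replicates 2 and 3. The dm3 lists were not used here.

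Summits (start plus offset) were set against Ensembl release 115 (BDGP6.54) transcripts, and every dm6 peak lay within the arms of the NCBI Release 6 sequence. The members, lists, windows and motifs were chosen with earlier results of these data known. No test was made: the series has 1 group, so counts stand beside the same share of all genes. Full values were given, by rule, for the 8 strongest general members, general members without a promoter peak and testis-type members with a peak within 5 kb, and for up to 4 pathway genes with and without a peak. Uch-L5 and Pomp were named beyond that rule, as the rest of a small count. Of the pathway symbols, 4 had no match. The overlap procedure was tested on simulated data. Python 3.11.15, numpy 2.4.6 and pandas 2.3.3 were used.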

Additional observations from a re-analysis of the deposited data

How the results depend on the processing

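Of 43 alternative values, 30 stayed within 1.5 times the reported one, or equal to it for medians and for counts of 0, and 13 did not. The 30 include testis-type counts of 0 that could not have changed, as set out below. With the stronger 50% of the IDR peaks, 2 general genes kept an own-promoter summit (Rpn3 and Rpn5), the median signal was 173, and 10 general genes had a peak within 5 kb. With all peaks of the pooled list, the own-promoter counts were 24 general, 2 testis-type and 22 pathway genes, where 51.4% of all genes had such a summit. The counts within 5 kb were then 31 general and 13 testis-type genes. No share of all genes is given here for the pooled peaks within 5 kb, the stronger 50%, or windows of 2 kb and 10 kb. Those counts show only how the numbers move with the setting. Leaving out 1 replicate gave 4 to 10 general genes, the 4 without replicate 2. The testis-type count within 5 kb was 0 with a window of 2 kb and 2 with one of 10 kb. With the start of the gene record as the TSS, the median distance was 82.0 bp. The DRE was found in 3 of the 8 windows of 100 bases on each side of the summits, a smaller set of genes by construction. The testis-type own-promoter count was 0 under each alternative other than the pooled list. For several of these the 0 was fixed, because they only take a part of the reported summits or starts. They are the narrower promoter window, the stronger 50%, the own TSS as the nearest, and the start of the gene record. With a wider promoter window, or with 1 replicate left out, the count could have risen and stayed at 0. The unknown depth limits what a missing peak can show. No paired analysis was possible because the series has 1 group.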

Other observations

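The DRE was about as frequent in general subunit promoters with and without a close neighbour. It was found in 8 of 21 general genes with another gene's TSS within 500 bp (38.1%) and in 4 of 11 without (36.4%), against 16.1% and 6.34% of all genes. Mitochondrial ribosomal protein genes had an own-promoter IDR summit at 21 of 54 genes with such a neighbour (38.9%) and 3 of 19 without (15.8%), against 29.4% and 8.87% of all genes.

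The exact repeat of 78 bases in the Rpn3 promoter was the longest in the 6 windows shown, with 7 to 11 bases in the other 5. How reads from the copies were placed is not given in the sources used here.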
